A study of Mus musculus with 2 samples.

Results

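The members described here are 8 islet receptor genes of the 31053 genes in the files. They are the incretin receptors Glp1r and Gipr, the lipid receptors Ffar1 and Gpr119, and 4 receptors for islet hormones and neurotransmitters, Gcgr, Sstr3, Adra2a and Chrm3. They were taken by name, with earlier results of these data known. Their transcripts were counted in single cells of pancreatic islets from male C57/B6 mice aged 16 weeks, in 1 wild-type (WT) library and 1 library from mice fed a high-fat diet (HFD). From the age of 6 weeks the HFD mice ate a diet that drew 60% of its energy from fat, for 10 weeks. Mice not on HFD ate standard chow according to the study's methods. Each library held islets pooled from 4 mice, so the mice cannot be separated and the diet and the library cannot be told apart.

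All 8 genes encode G protein-coupled receptors, through which nutrients, gut hormones, neighbouring islet cells and nerves tune insulin release on top of the glucose signal. Receptors coupled to Gs raise cAMP and amplify secretion, as the receptors for the gut hormones GLP-1 (Glp1r) and GIP (Gipr), for lipid amides (Gpr119) and for glucagon from α cells (Gcgr) do. Ffar1, the receptor for long-chain fatty acids also known as GPR40, and Chrm3, the muscarinic receptor for acetylcholine, act mainly through Gq and phospholipase C. Sstr3, a receptor for somatostatin from δ cells, and Adra2a, a receptor for noradrenaline and adrenaline, couple to Gi, which lowers cAMP and restrains secretion.

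The files held 3895 WT barcodes and 8951 HFD barcodes, of which 2498 and 6672 were kept. Cells are named X-like after the marker genes of their cluster, and each β-like cluster held 9 or 10 detected β-cell markers. β-like cells made up 68.5% of WT cells (1712 cells, median 30462 unique molecular identifiers, UMIs) and 81.2% of HFD cells (5419 cells, median 12187 UMIs). Insulin transcripts took 61.2% and 57.4% of their UMIs. There were 54 WT and 203 HFD α-like cells, 52 and 117 δ-like cells and 17 and 23 γ-like cells. Nearly every β-like cluster came mostly from 1 library. The libraries shared 9 barcodes. Clusters that expressed insulin genes but were led by other hormones, by haemoglobin or by nuclear RNAs, or held few UMIs per cell, were left unnamed. In all, 13.0% of WT and 6.68% of HFD cells were unnamed. Levels below are UMIs of a gene summed over the cells of a class per 1000000 UMIs of those cells (CPM). With 1 library per group there was no test. The 95% intervals are exact Poisson intervals of a level, exact conditional intervals of a ratio and exact Clopper-Pearson intervals of a share. They cover counting error only, not the spread between mice or libraries. A gene was called lower or higher where its level differed by at least 1.5-fold and the interval of the ratio left out 1.

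All 8 receptors had a lower level in HFD than in WT β-like cells. Of the 9384 genes with 200 to 8000 UMIs over both libraries, 53.2% were lower. The differences of the members ran from near 1.5-fold to near none. Glp1r, Gipr and Ffar1 had HFD to WT ratios between 0.663 and 0.692. Gcgr and Gpr119 lay at 0.848 and 0.879, and the receptors coupled to Gi, Sstr3 and Adra2a, at 0.956 and 0.912. The interval lay below 1 for Glp1r, Gipr, Ffar1, Gcgr and Adra2a and included 1 for Gpr119, Sstr3 and Chrm3. The share of all genes with an interval below 1 was not counted. Only 1 member, Gipr, was called lower and 0 were called higher, against 4.89% of all 14137 genes tested called lower and 3.61% called higher. The median log2 ratio was -0.21 over the 8 members and -0.01 over all genes tested.

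Among the incretin receptors, Gipr (chr7:19156061-19166127, minus strand, GRCm38) was counted 1499 times in WT and 1279 times in HFD β-like cells. Its level was 25.8 CPM (24.5 to 27.2) in WT and 17.1 CPM (16.2 to 18.1) in HFD, a ratio of 0.663 (0.615 to 0.715). The intervals of the levels did not overlap. The call of Gipr rested on a ratio at the limit of 1.5-fold, and under another scaling (TMM of edgeR) its log2 ratio of -0.57 no longer passed. Glp1r (chr17:30901817-30940791, plus strand) was sparse, with 128 WT and 114 HFD UMIs, seen in 118 of 1712 and 113 of 5419 cells. Its level was 2.21 CPM (1.84 to 2.62) in WT and 1.53 CPM (1.26 to 1.83) in HFD, a ratio of 0.692 (0.533 to 0.898). The interval of Glp1r was more than 3 times as wide as that of Gipr on the log2 scale, from -0.91 to -0.16 against -0.70 to -0.48.

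Of the lipid receptors, Ffar1 (chr7:30857390-30861564, minus strand) had 2766 WT and 2455 HFD UMIs. Its level was 47.7 CPM (45.9 to 49.5) in WT and 32.9 CPM (31.6 to 34.2) in HFD, and the ratio was 0.690 (0.653 to 0.729). Ffar1 thus differed between the libraries by nearly as much as Gipr, but fell short of the 1.5-fold limit. Gpr119 (chrX:48667979-48674478, minus strand) was counted 198 and 224 times and reached 3.41 CPM (2.95 to 3.92) in WT and 3.0 CPM (2.62 to 3.42) in HFD. Its ratio was 0.879, with an interval (0.723 to 1.07) that included 1 on this total.

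The receptors for islet hormones and neurotransmitters differed less. Gcgr (chr11:120530699-120538986, plus strand) was at 9.72 CPM (8.93 to 10.6) in WT and 8.24 CPM (7.60 to 8.92) in HFD β-like cells, a ratio of 0.848 (0.755 to 0.952). Sstr3 (chr15:78537008-78544685, minus strand) was at 42.4 CPM (40.7 to 44.1) and 40.5 CPM (39.1 to 42.0), a ratio of 0.956 (0.906 to 1.01). For Sstr3 the counts were large, and on total UMIs the interval left out a fall of more than 0.14 on the log2 scale. Without hormone and mitochondrial genes in the total, its log2 ratio was -0.24 (-0.32 to -0.17), so this limit depended on the scaling. Adra2a (chr19:54044151-54048982, plus strand), with 3550 and 4163 UMIs the most often counted member, was at 61.2 CPM (59.2 to 63.2) in WT and 55.8 CPM (54.1 to 57.5) in HFD, a ratio of 0.912 (0.871 to 0.954). Chrm3 (chr13:9875486-10360847, minus strand) was at 7.84 CPM (7.14 to 8.60) and 7.39 CPM (6.79 to 8.04), a ratio of 0.943 (0.831 to 1.07).

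**Figure D1:**
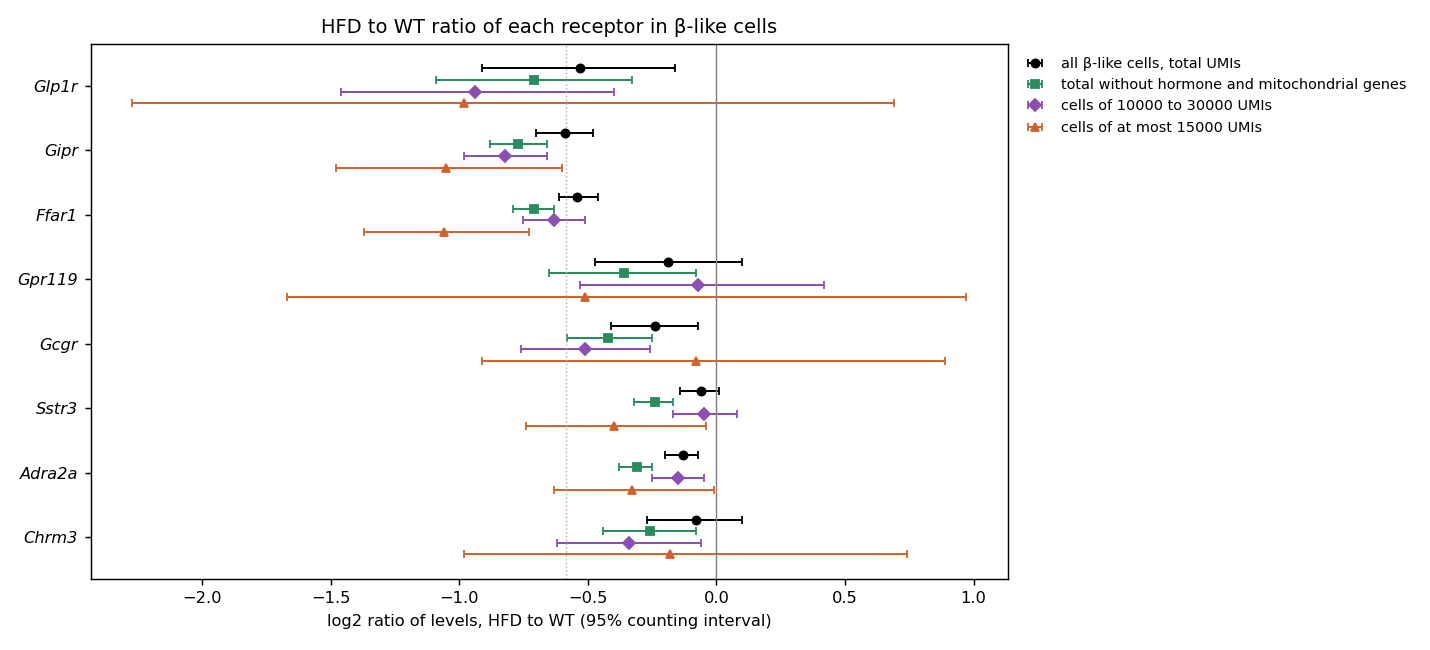
Log2 ratio of the HFD level to the WT level of each receptor in β-like cells (x axis), one row per gene, with the 95% counting interval as a bar, for all β-like cells and 3 alternatives. The solid line marks no difference and the dotted line the limit of 1.5-fold lower; Gipr (-0.59), Ffar1 (-0.54) and Glp1r (-0.53) lay near the dotted line, and Sstr3 (-0.06) and Chrm3 (-0.08) near the solid line.

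The size of these ratios depended on what the counts were scaled to and on the depth of the cells, but Glp1r, Gipr and Ffar1 had the 3 lowest log2 ratios of the 8 members under each of the 11 alternatives. Scaled to UMIs without hormone and mitochondrial genes, the log2 ratios were -0.77 for Gipr, -0.71 for Ffar1, -0.42 for Gcgr, -0.24 for Sstr3 and -0.31 for Adra2a. They were -0.36 (-0.65 to -0.08) for Gpr119 and -0.26 (-0.44 to -0.08) for Chrm3, so that on this total the intervals of all 8 members lay below 0. The share of all genes with such an interval was not counted, and the median over all genes moved from -0.01 to -0.19. On that scale 3 members were called lower, beside 1327 of all 14137 genes tested. Of all calls, 80.5% were lower calls, against 57.5% on the total. The maximum of 15000 UMIs per cell in the study's methods left 103 of 1664 WT but 3392 of 5273 HFD β-like cells of at least 5000 UMIs. With this maximum Gipr and Ffar1 were called lower (log2 ratios -1.05 and -1.06), beside 1366 of all 12552 genes tested. Of all calls, 87.2% were lower calls. Under all 11 alternatives of each of the 8 genes, 88 values in all, the log2 ratio was below 0. These values use the counts of the same libraries again, so their shared sign is not separate evidence.

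A measure that does not depend on scaling is the number of UMIs of one receptor for each 100 UMIs of another in the same cells. This measure was chosen after the ratios above were seen, and the 2 receptors coupled to Gi were taken as the reference. For each 100 UMIs of Sstr3 and Adra2a together, WT β-like cells held 25.0 UMIs of Gipr, and HFD β-like cells held 17.8, a ratio of 0.713 (0.657 to 0.774). The same measure was 46.0 and 34.2 for Ffar1 (ratio 0.742, 0.696 to 0.791) and 2.13 and 1.59 for Glp1r (ratio 0.745, 0.577 to 0.961). It was 9.39 and 8.56 for Gcgr (ratio 0.912, 0.809 to 1.03), 3.30 and 3.12 for Gpr119 (ratio 0.946, 0.779 to 1.15) and 7.57 and 7.68 for Chrm3 (ratio 1.01, 0.892 to 1.15). Relative to the Gi-coupled receptors, the incretin receptors and Ffar1 were thus lower in the HFD library, and for Gcgr, Gpr119 and Chrm3 no difference was detectable. The same counts as above were used, with a reference whose own ratios were known, so this order is not separate evidence. In cells of 15000 to 30000 UMIs alone the ratio was 0.612 (0.534 to 0.701) for Gipr, 0.731 (0.656 to 0.816) for Ffar1 and 0.436 (0.285 to 0.667) for Glp1r. There it was also below 1 for Gcgr (0.730, 0.600 to 0.888) and Chrm3 (0.739, 0.593 to 0.922), so the position of these 2 genes depended on the depth of the cells compared. Between 5000 and 10000 UMIs the ratio was 2.08 (0.741 to 5.83) for Gipr and 0.983 (0.558 to 1.73) for Ffar1, from 4 and 17 WT UMIs. In each band from 10000 UMIs upward the intervals of both lay below 1.

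Because WT β-like cells held more UMIs per cell, the levels were also taken within bands of UMIs per cell. Between 15000 and 30000 UMIs, where both libraries had many β-like cells (688 WT and 1743 HFD), Gipr was at 29.2 CPM (26.6 to 32.0) in WT and 16.9 CPM (15.5 to 18.3) in HFD. Ffar1 was at 48.3 CPM (44.9 to 51.8) and 33.3 CPM (31.5 to 35.3), and Glp1r at 2.89 CPM (2.11 to 3.87) and 1.19 CPM (0.858 to 1.61). In these cells the incretin receptors and Ffar1 differed by as much as in all cells or more. Gcgr also differed, at 11.6 CPM (10.00 to 13.5) and 8.02 CPM (7.12 to 9.02), as did Chrm3, at 8.93 CPM (7.51 to 10.5) and 6.24 CPM (5.44 to 7.12). Sstr3 was at 41.3 CPM (38.2 to 44.6) and 40.4 CPM (38.3 to 42.6), and Adra2a at 61.2 CPM (57.4 to 65.3) and 56.5 CPM (54.0 to 59.0), with overlapping intervals. Above 30000 UMIs (873 WT and 138 HFD cells) Sstr3 was lower in HFD as well, at 42.3 CPM (40.4 to 44.4) against 29.8 CPM (25.1 to 35.2). Between 5000 and 10000 UMIs there were 38 WT cells, with 4 UMIs of Gipr and 17 of Ffar1, and the intervals of these ratios included 1. There Gipr had the reverse order, 13.7 CPM (3.74 to 35.1) in WT and 18.7 CPM (16.5 to 21.2) in HFD. In that band Sstr3 was at 82.3 CPM (52.7 to 122) in WT, from 24 UMIs, and 43.7 CPM (40.3 to 47.4) in HFD, so Sstr3 was lower in HFD in this band and in the band above 30000 UMIs.

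**Figure D2:**
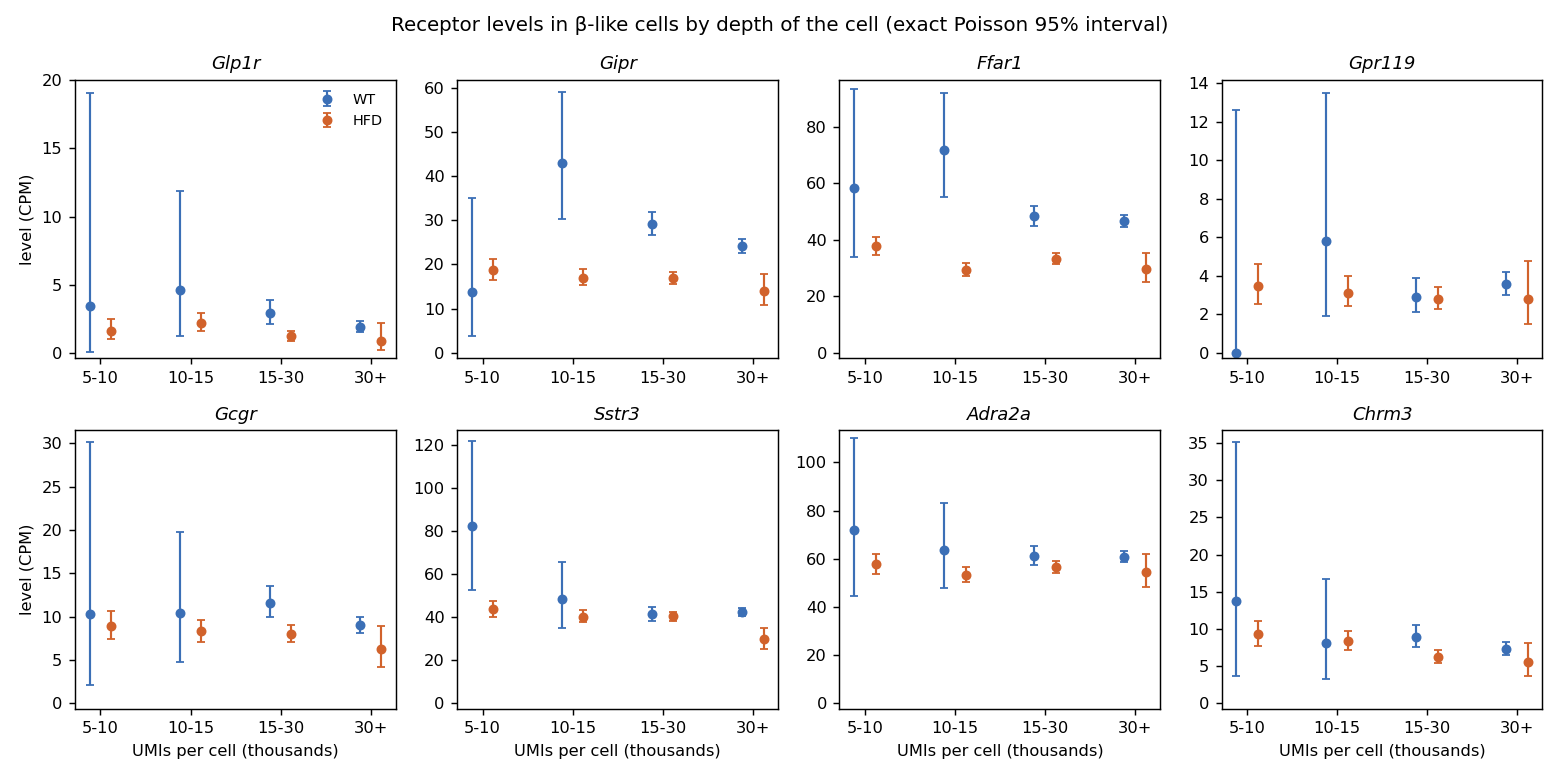
Level of each receptor (CPM, y axis) in β-like cells grouped by UMIs per cell (x axis, bands from 5000 UMIs), with exact Poisson 95% intervals, WT in blue and HFD in orange. From 10000 UMIs upward the WT points of Gipr and Ffar1 lie above the HFD points with intervals apart, and at 15000 to 30000 UMIs Sstr3 has 41.3 CPM in WT and 40.4 CPM in HFD.

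Single cells showed few of these transcripts. To compare cells at equal depth, each cell of at least 5000 UMIs was thinned to 5000, which kept 1664 WT and 5273 HFD β-like cells and left out 48 and 146. After thinning, Ffar1 was seen in 23.1% (21.1 to 25.2) of WT and 15.3% (14.4 to 16.3) of HFD β-like cells, and Gipr in 11.9% (10.4 to 13.6) and 8.06% (7.34 to 8.83). Glp1r was seen in 1.56% (1.02 to 2.28) and 0.759% (0.542 to 1.03). Glp1r, Gipr and Ffar1 were also the members whose levels differed most. Adra2a was seen in 25.3% (23.2 to 27.5) and 23.9% (22.7 to 25.0), Gcgr in 5.29% (4.26 to 6.48) and 3.89% (3.38 to 4.45), Chrm3 in 3.79% (2.92 to 4.82) and 4.04% (3.52 to 4.61) and Gpr119 in 1.80% (1.22 to 2.56) and 1.57% (1.26 to 1.95). For Sstr3 the draw gave 21.6% (19.6 to 23.6) and 18.3% (17.3 to 19.4), whereas the average over all possible draws was 19.2% and 18.7%, so that no difference can be read from the draw. For Glp1r the averages were 1.24% and 0.818%, closer together than in the draw. The averages over draws for Gipr, 12.6% and 8.54%, and for Ffar1, 21.4% and 15.3%, differed as the draw did. Without thinning, Ffar1 was seen in 72.1% of WT and 34.2% of HFD cells and Gipr in 54.3% and 20.6% of cells of unequal depth, a wider gap than after thinning.

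At 5000 UMIs at least 1 of the 8 receptors was seen in 65.1% of WT and 55.5% of HFD β-like cells, and at least 2 in 23.4% and 17.1%. These shares come from the same single draw, whose gap for Sstr3 was wider than the average over draws. No average was taken for them. As background, endothelial-like cells were taken, of which 62 WT cells (median of the class 4493 UMIs) and 45 HFD cells (median 3271 UMIs) could be thinned to 5000. Among them Ffar1 was seen in 2 and 1 cells, Gipr in 1 and 0, Adra2a in 0 and 1, Sstr3 in 0 and 1, and Glp1r, Gpr119 and Gcgr in 0 of 62 and 0 of 45. Chrm3 was seen in 2 of 62 WT endothelial-like cells (3.23%, 0.393 to 11.2) and 1 of 45 HFD cells (2.22%, 0.0562 to 11.8). Over all endothelial-like cells Chrm3 had 5 WT and 4 HFD UMIs, where free RNA spread from β-like cells in proportion to insulin would bring 0.567 and 0.197 UMIs, so these cells do not serve as background for Chrm3. For Glp1r and Gpr119, counts of 0 of 62 and 0 of 45 allow shares of up to 4.84% and 6.67%, above their β-like shares, so that these could not be told from background either. For Gcgr, with the same counts, the HFD β-like share of 3.89% lay below this limit. Its WT share of 5.29% lay above 4.84% but below the exact upper bound of 5.78%, so by these shares Gcgr was not clearly told from background. Over all endothelial-like cells, 0 UMIs of Gcgr allow up to 3.11 CPM in WT and 5.19 CPM in HFD. Both limits lay below its β-like levels of 9.72 and 8.24 CPM.

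Within β-like cells the receptors did not keep one level across clusters. Member genes were not used to make the clusters, and each cluster came mostly from 1 library, so clusters and libraries cannot be told apart. Among WT clusters, Ffar1 ran from 32.1 CPM in cluster 6 (320 cells, led by the metallothioneins Mt2 and Mt1 and by Ifit1) to 69.9 CPM in cluster 11 (170 cells, led by Rasd1, C2cd4b and mitochondrial genes, median mitochondrial share 8.74%). Gipr ran from 18.8 CPM (16.6 to 21.2) in cluster 5 (397 cells) to 41.1 CPM in cluster 11. The WT cluster 6 stood apart for Adra2a, with 37.4 CPM against 61.5 to 69.9 CPM in the other WT clusters. That cluster had 47.3 CPM of Sstr3, within the range of the other WT clusters (33.4 to 52.7 CPM), so its low level of Adra2a was not shared by the other Gi-coupled receptor.

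Among HFD clusters the levels were lower and closer together for Gipr, from 14.0 CPM in cluster 1 (1245 cells) to 21.6 CPM in cluster 0 (1680 cells, led by Nupr1 and the metallothioneins). Ffar1 ran from 25.4 CPM in cluster 3 (812 cells) to 40.4 CPM in cluster 0. The WT cluster 5, at 36.2 CPM of Ffar1, and the HFD cluster 0 thus overlapped in level. Sstr3 was highest in cluster 0 among HFD clusters of over 100 cells, at 50.8 CPM against 34.6 to 41.7 CPM. A set of 69 HFD cells fell into the WT cluster 4, which is led by Rasd1, C2cd4b and the immediate early gene Fos. These HFD cells held 18 UMIs of Gipr (30.2 CPM, 17.9 to 47.7) and 32 of Ffar1 (53.6 CPM, 36.7 to 75.7), beside 29.5 CPM and 56.3 CPM in the 661 WT cells of that cluster. The sparser members gave wider intervals. Chrm3 was at 20.1 CPM (10.4 to 35.1, 12 UMIs) in the HFD cells of cluster 4, against 6.05 to 8.32 CPM in the other HFD clusters of over 100 cells. Glp1r was at 0.895 CPM (0.554 to 1.37) in HFD cluster 1 and at 1.84 CPM (1.28 to 2.56) in HFD cluster 0, with 21 and 35 UMIs. Gcgr was lower in HFD cluster 1, at 6.39 CPM (5.41 to 7.50), than in HFD cluster 0, at 10.5 CPM (9.13 to 12.1), so that cluster 0 lay above cluster 1 for Glp1r, Gipr, Ffar1, Gcgr, Sstr3 and Adra2a, with intervals apart for all of these but Glp1r. Gpr119 was at 3.03 CPM (2.36 to 3.82) and 3.27 CPM (2.50 to 4.19) in these clusters, with overlapping intervals.

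**Figure D3:**
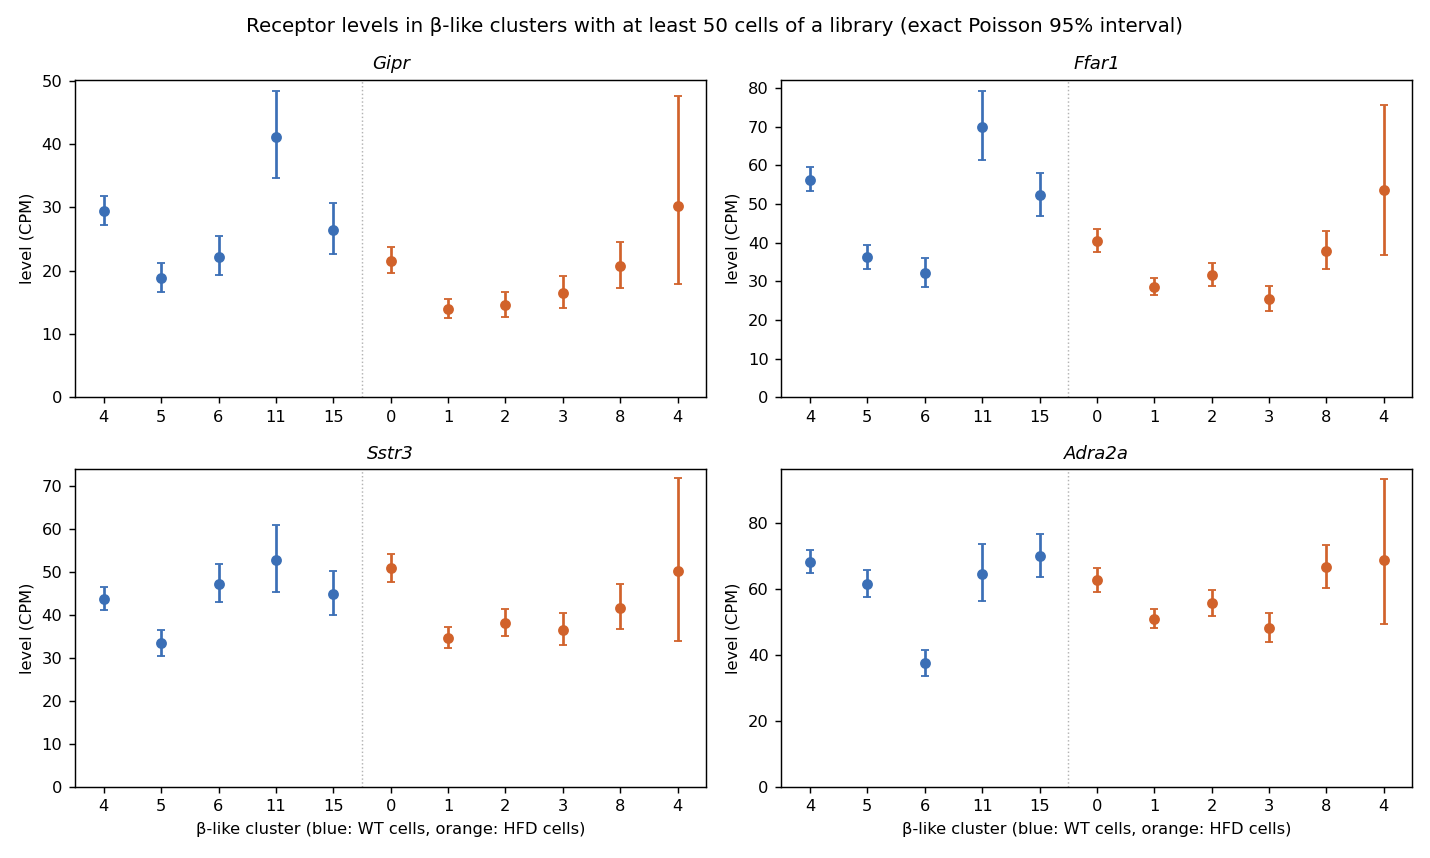
Level (CPM, y axis) of Gipr, Ffar1, Sstr3 and Adra2a in each β-like cluster with at least 50 cells of a library (x axis, cluster number), with exact Poisson 95% intervals, WT cells in blue and HFD cells in orange. The WT clusters run from 18.8 to 41.1 CPM for Gipr, and WT cluster 6 has 37.4 CPM of Adra2a, below all other points.

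Between endocrine cell types the receptors followed different patterns, not all of which were seen in both libraries. In bulk-like sums of a class a lower level can come from fewer cells that express a gene or from less RNA per cell, and these cannot be told apart. Gpr119 was at a higher level in α-like than in β-like cells in both libraries. It was counted 20 times in 54 WT α-like cells (30.8 CPM, 18.8 to 47.6) and 16 times in 203 HFD α-like cells (16.0 CPM, 9.16 to 26.0), against 3.41 and 3.0 CPM in β-like cells. The α-like level was 9.03-fold (5.39 to 14.3) the β-like level in WT and 5.34-fold (3.0 to 8.87) in HFD. Insulin takes up much of the UMIs of β-like cells, and without hormone and mitochondrial genes in the total these values were 4.91-fold and 3.37-fold. In WT γ-like cells Gpr119 was counted 12 times in 9 of 17 cells (38.5 CPM, 19.9 to 67.2), 11.3-fold (5.73 to 20.1) the β-like level. In 23 HFD γ-like cells it was not seen, which allows up to 20.5 CPM, a level within the WT interval, so a difference between the libraries was not detectable in these few cells. Thinned to 5000 UMIs, 53 WT and 78 HFD α-like cells remained, while 1 and 125 were left out, and Gpr119 was seen in 6 and 9 of them (11.3% and 11.5%), against 1.80% and 1.57% of β-like cells. Averaged over all possible draws, the α-like shares were 13.8% in WT and 11.4% in HFD. With so few cells, the shares do not show whether the α-like levels of the libraries, 30.8 and 16.0 CPM, differed.

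Ffar1 showed the opposite order. In WT it was at 47.7 CPM in β-like, 16.9 CPM (8.46 to 30.3) in α-like, 12.8 CPM (3.49 to 32.8) in γ-like and 4.60 CPM (0.557 to 16.6) in δ-like cells, and the intervals of the last 3 overlapped. The β-like level was 2.81-fold (1.57 to 5.64) the α-like level in WT and 4.69-fold (2.27 to 11.7) in HFD, where 7 UMIs were counted in α-like cells. Gipr was at 25.8 and 17.1 CPM in β-like cells and at 23.0 CPM (11 to 42.3) and 16.0 CPM (5.87 to 34.8) in δ-like cells, and the intervals of the β-like to δ-like ratios, 0.609 to 2.35 and 0.491 to 2.93, included 1. Without hormone and mitochondrial genes in the total, the WT ratio was 2.31 (1.25 to 4.82). Of the 10 WT δ-like UMIs of Gipr, 6 lay in cluster 25, a δ-like cluster of 16 WT and 16 HFD cells whose leading genes are mostly those of contractile cells (Tpm2, Actg2, Acta2, Myl9) beside Sst. In the other δ-like cluster, 14, Gipr was at 14.8 CPM (4.03 to 37.8) in WT and 15.6 CPM (5.06 to 36.4) in HFD. In α-like cells it was at 6.16 CPM (1.68 to 15.8) and 3.01 CPM (0.620 to 8.78), and the β-like level was 4.19-fold (1.63 to 15.4) and 5.70-fold (1.95 to 27.7) the α-like level. Glp1r was not counted in α-like cells of either library. That allows up to 4.62 CPM in WT and 3.01 CPM in HFD, above its β-like level, so a difference between the types was not detectable.

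**Figure D4:**
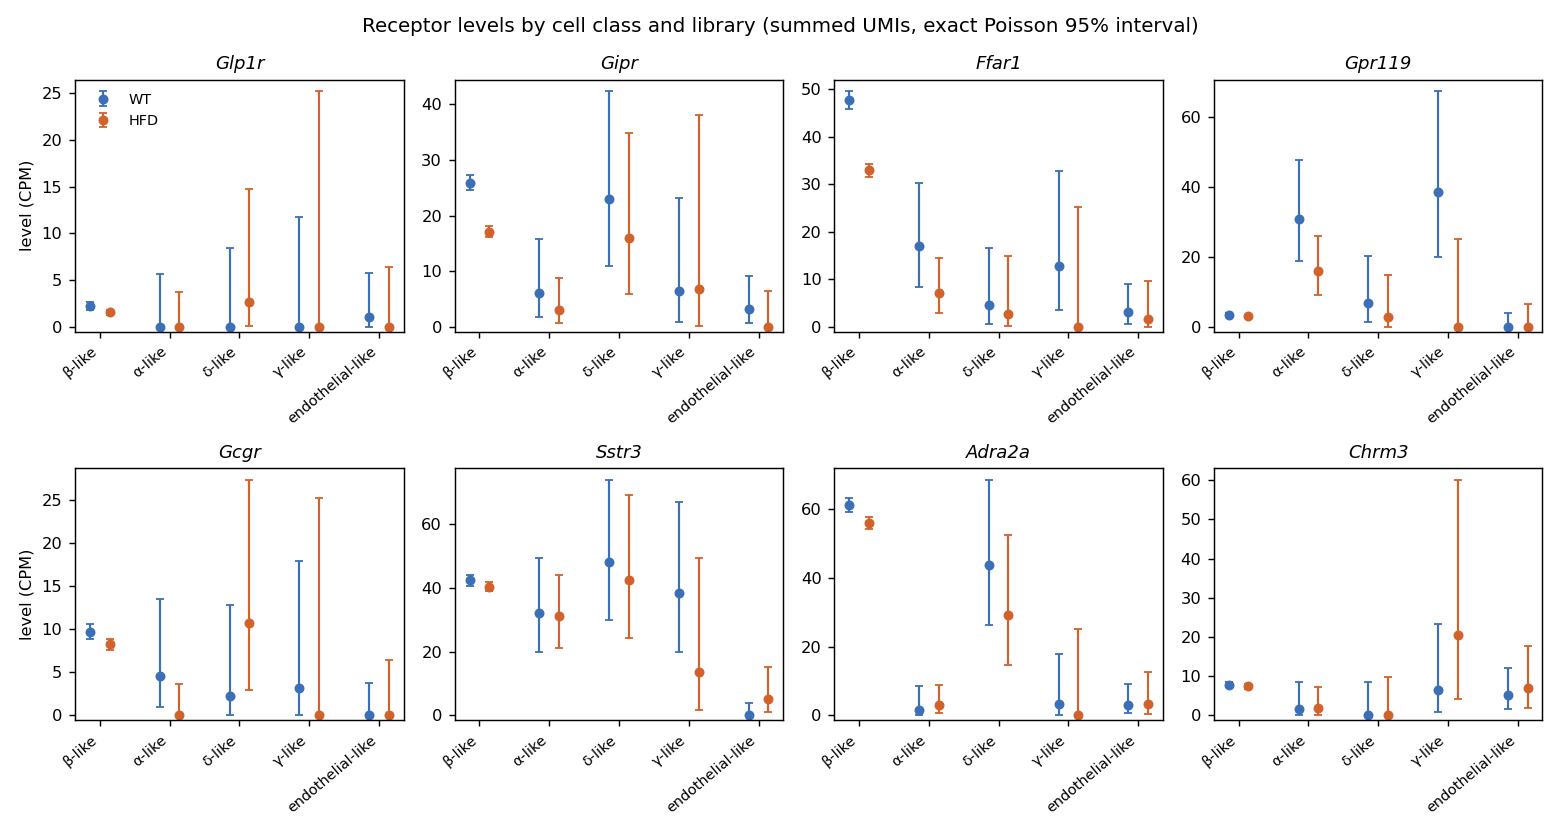
Level of each receptor (CPM, y axis) in 5 cell classes (x axis) of the WT library (blue) and the HFD library (orange), with exact Poisson 95% intervals. Gpr119 is at 30.8 and 16.0 CPM in α-like cells against 3.41 and 3.0 CPM in β-like cells, and Adra2a is at 61.2 and 55.8 CPM in β-like cells against 1.54 and 3.01 CPM in α-like cells.

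Adra2a separated β-like from α-like cells most widely. A single UMI was counted in WT and 3 UMIs in HFD α-like cells, and the β-like level was 39.7-fold (7.13 to 1570) and 18.6-fold (6.35 to 90.0) the α-like level. Insulin UMIs in other cells give a measure of free RNA, and RNA spread from β-like cells in the same proportion would bring 0.276 and 1.07 UMIs of Adra2a into these α-like cells. In δ-like cells Adra2a was at 43.7 CPM (26.3 to 68.3) in WT and 29.3 CPM (14.6 to 52.4) in HFD. Of the 19 UMIs in WT δ-like cells, 15 lay in 5 of the 16 WT cells of the contractile-gene cluster 25, and 8 of them in 1 cell. In cluster 14 Adra2a was at 14.8 CPM (4.03 to 37.8) in WT and 25.0 CPM (10.8 to 49.2) in HFD. The WT δ-like cells with at most 10% mitochondrial UMIs had 14.4 CPM (3.92 to 36.9). The part of the contractile genes in these results was not tested.

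Sstr3 was spread over the endocrine cells. In WT it was at 42.4 CPM in β-like, 32.3 CPM (21 UMIs) in α-like, 48.3 CPM (29.9 to 73.9) in δ-like and 38.5 CPM (19.9 to 67.2) in γ-like cells, and each of the intervals of the other 3 types included the β-like level. In δ-like cluster 14 alone it was at 55.4 CPM (31.0 to 91.4) in WT. In HFD it was at 40.5, 31.1, 42.6 and 13.7 CPM in the same order, the last from 2 UMIs. In WT endothelial-like cells it was not counted, although RNA spread from β-like cells would have brought 3.07 UMIs. Without hormone and mitochondrial genes in the total, the β-like level of Sstr3 was 2.41-fold (1.57 to 3.90) the α-like level in WT and 2.07-fold (1.45 to 3.05) in HFD, so the evenness of Sstr3 held on the total UMIs only. Gcgr was counted 3 times in WT and 0 times in HFD α-like cells. In WT the β-like level was 2.10-fold (0.716 to 10.2) the α-like level, an interval that included 1. In HFD the β-like level was at least 2.74-fold the α-like level. Without hormone and mitochondrial genes in the total, the WT ratio was 3.87 (1.32 to 18.8), from the same 3 α-like UMIs. In δ-like cells Gcgr was at 2.30 CPM (0.0583 to 12.8) in WT and 10.7 CPM (2.90 to 27.3) in HFD, from 1 and 4 UMIs. Chrm3 was not counted in δ-like cells, which allows up to 6.90 and 7.99 CPM. Its endothelial-like levels were 5.18 CPM (1.68 to 12.1) and 6.92 CPM (1.88 to 17.7), and both intervals included the β-like level. This likeness held on total UMIs only. With hormone and mitochondrial genes left out of the total, β-like cells had 22.6 (WT) and 18.9 CPM (HFD) of Chrm3. Endothelial-like cells then had less, 5.64 and 7.37 CPM, from 5 and 4 UMIs and without intervals.

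In α-, δ- and γ-like cells too few UMIs were counted to separate the diets. In α-like cells the HFD to WT ratio was 0.520 (0.252 to 1.06) for Gpr119, 0.414 (0.136 to 1.17) for Ffar1 and 0.960 (0.534 to 1.76) for Sstr3. In δ-like cells it was 0.695 (0.207 to 2.11) for Gipr, 0.670 (0.288 to 1.48) for Adra2a and 0.882 (0.430 to 1.77) for Sstr3. All of these intervals included 1.

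The promoter window of Gpr119 is shown because this was the member with a higher level in α-like and WT γ-like than in β-like cells. RefSeq promoter windows (GRCm38.p6) were found for 7 of the 8 members, and the 250 bases before the RefSeq start were searched on both strands for 4 motifs. These were TAAT, the core that many homeodomain factors bind, CANNTG, the E-box, TGACG, part of the cAMP response element, and TATAAA. The Gpr119 window is chrX:48674479-48674728 (minus strand) and is written 5′ to 3′ on the gene's strand. Capitals mark TAAT or its reverse complement ATTA.
Gpr119: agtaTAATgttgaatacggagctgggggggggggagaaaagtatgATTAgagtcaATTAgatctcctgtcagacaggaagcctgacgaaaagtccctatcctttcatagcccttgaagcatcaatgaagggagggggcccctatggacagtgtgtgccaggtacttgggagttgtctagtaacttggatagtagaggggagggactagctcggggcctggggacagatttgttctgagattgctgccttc

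The Gpr119 window held 3 matches of TAAT, 1 of TGACG and 0 of CANNTG and of TATAAA. The windows of the other matched members held no TAAT. The RefSeq start of Ffar1 lies downstream of the start in the GENCODE position given above, so its window lies partly within the transcribed gene and is not shown. Of all 32851 windows of the same length, 54.9% held TAAT, 66.2% CANNTG, 17.8% TGACG and 12.4% TATAAA, so none of these matches sets Gpr119 apart from other promoters.

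The signalling partners of the receptors were described in β-like cells from 8 lists. Of 23 other islet receptors with at least 10 UMIs, 6 were lower in HFD, 3 were higher and the rest were not called, against 4.89% and 3.61% of all genes tested (median log2 ratio -0.21, as for the 8 members, against -0.01 over all genes). Lower were Ffar4, another receptor for long-chain fatty acids (log2 ratio -1.04), the adenosine receptor Adora1 (-0.89), the orphan receptor Gprc5c (-0.84) and the zinc-sensing Gpr39 (-0.67). Higher were the oxytocin receptor Oxtr (1.43, from 2.93 to 7.90 CPM), the receptor for VIP and PACAP Vipr2 (1.08) and the prostaglandin E2 receptor Ptger4 (0.90).

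The same shares of all genes, 4.89% lower and 3.61% higher, stand beside the counts of the following lists, which are short, so that 1 call more or less weighs heavily. Of 11 G protein α subunits, 1 was lower (Gnai1, -0.67) and 0 were higher (median -0.17). Of 3 adenylyl cyclases, which make cAMP, 1 was lower (Adcy3, -0.83, from 36 and 26 UMIs; median -0.54). Of 12 phosphodiesterases, 2 were lower (Pde10a, -0.76, and Pde1c, -0.60) and 1 was higher (Pde4d, 1.24), with a median of -0.27. Of 14 genes of the PKA, Epac and CREB arm, 2 were lower and 0 higher (median -0.09). They were Irs2, a substrate of the insulin receptor whose transcription cAMP raises (-0.97, from 70.3 to 36.0 CPM), and the CREB coactivator Crtc2 (-0.80). Of 11 genes of the phospholipase C arm, 1 was lower (Prkcd, -0.61) and 0 higher (median -0.35).

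Of 17 genes of receptor desensitisation, 1 was lower, the receptor kinase Grk5 (-0.61), and 2 were higher, Rgs8 (1.28, from 8 and 25 UMIs) and the receptor chaperone Ramp1 (0.64), with a median of -0.06. Of 12 genes of ligands and their enzymes, 5 were lower and 2 higher (median -0.35), against 4.89% and 3.61% of all genes. Ghrl (-5.32, from 31 and 1 UMIs), Npy (-1.90) and Ppy (-1.30) were lower, as was Sst (-0.72), whose log2 ratio was 0.90 with at most 15000 UMIs per cell. Without cells that held another hormone at 1% of UMIs, Ppy was at -0.16 and Sst at -0.29. Gal was higher (2.26, from 6 and 37 UMIs), though at -0.16 with at most 15000 UMIs, where 1 WT UMI remained, and so was Gcg (0.96). Except for Sst and Gal, the named genes of these lists kept their direction without hormone and mitochondrial genes in the total and, where they had a value, with at most 15000 UMIs per cell. Ptger4, Vipr2, Rgs8 and Npy had 0 WT UMIs in the last setting and no value there, and Ffar4, Oxtr, Adcy3 and Ghrl rested on 1 WT UMI each and Gpr39 on 2, too few to read a direction from.

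The genes most like each receptor over cell classes were sought among 11230 genes, by the correlation of log2(CPM + 1) over 14 points, 7 classes in each of the 2 libraries. These points share libraries and depth, and the values are a description. Closest to Gpr119 were Dpp10 (r = 0.975), C8b (0.972) and Arnt2 (0.970). Closest to Gipr were Tmem121 (0.962), Carmil3 (0.954) and Rad51ap2 (0.95), and closest to Sstr3 were Gdap1 (0.966), Mir670hg (0.963) and Serpina10 (0.946). Ffar1 was most like Maob (0.934), Ret (0.902) and Atg13 (0.900), and Gcgr most like Rad51ap2 (0.949), Exph5 (0.917) and Lhx1os (0.904). The closest gene to Adra2a was another member, Gipr (0.903), followed by Gm27033 (0.896) and AC121960.2 (0.895). The sparse Glp1r was closest to Tnfrsf11b (0.945), Gsdma (0.932) and Mroh7 (0.925), and Chrm3 to Taco1 (0.95), Pcdhb22 (0.906) and 9230112J17Rik (0.876).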

How the data were processed

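Single-cell RNA libraries of pooled mouse islets (10x Genomics 3-prime v3) were analysed, 1 WT and 1 HFD. The authors deposited unnormalised UMI counts of each gene in each barcode. They had mapped the reads to mm10 using Cell Ranger (version 3.0.2), per the labels and the study's methods. Barcodes with at least 500 genes and at most 20% mitochondrial UMIs were kept, with no UMI maximum. The automatic Scrublet threshold called 12 WT and 0 HFD barcodes and was not used. The highest scores were left out instead (0.8% per 1000 barcodes, 121 and 641 barcodes).

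Cells scaled to 10000 UMIs and square-root transformed were clustered with 2000 variable genes, without hormone, member or list genes, 50 components, 15 neighbours and Leiden (scanpy v1.11.5) with the resolution set to 1. Names came from 15 lists of markers. Where the median cell of a cluster had less than 0.1 times its mean level of markers, the cluster was divided in 2. A cluster stayed unnamed with under 3 detected markers, or where its 10 leading genes held more listed markers of another class than of its own. It also stayed unnamed where its median cell held under 1/3 of the median UMIs of its library and no own marker was among these 10 genes. Cluster 25 passed these rules as δ-like, although contractile-cell genes that are mostly on no list lead it. Values of the other δ-like cluster are given beside those it moves. Members and lists were chosen with earlier results of these data known.

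UMIs were summed by class and library. Ratios and intervals came from scipy (v1.17.1), and the ratio code was tested on simulated data. Zero counts were given a limit of 3 UMIs, and no ratio was given at or under 3 UMIs in both groups. The interval of a ratio between receptors is a normal approximation on the log scale. Thinning used 1 seeded draw per cell. Named genes were the members, up to 4 called genes each way of a list with at least 20 UMIs, and the 3 most alike genes with at least 200 UMIs. Alternatives were the gene, mitochondrial and UMI limits, doublets kept, another total, TMM (edgeR v4.0.16), means over cells, cells without another hormone, depth, resolution and thinning. The unnamed insulin clusters, depth bands, clusters, receptor pairs and the count of calls with the total free of hormone and mitochondrial genes were added after seeing the data. Positions are GENCODE M21 (GRCm38).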

Additional observations from a re-analysis of the deposited data

How the results depend on the processing

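No paired analysis was possible because each group held 1 library and the labels give no replicate numbers; for the same reason no replicate could be left out. Of 88 alternative log2 HFD to WT ratios in β-like cells, 72 stayed within the interval of the reported value and 16 moved beyond it, all below 0. With at most 15000 UMIs per cell they were -0.98 (Glp1r), -1.05 (Gipr), -1.06 (Ffar1), -0.51 (Gpr119), -0.40 (Sstr3) and -0.33 (Adra2a). Without hormone and mitochondrial genes in the total they were -0.77 (Gipr), -0.71 (Ffar1), -0.42 (Gcgr), -0.24 (Sstr3) and -0.31 (Adra2a). In cells of 10000 to 30000 UMIs they were -0.94 (Glp1r), -0.82 (Gipr), -0.63 (Ffar1), -0.51 (Gcgr) and -0.34 (Chrm3). The cause was not tested.

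Of 150 alternative ratios between cell types, 142 stayed and 8 moved, none turning a ratio whose interval left out 1. Without hormone and mitochondrial genes, the log2 ratio of β-like to α-like cells was -2.30 for Gpr119 in WT, and 1.27 in WT and 1.05 in HFD for Sstr3. That of β-like to δ-like cells was 0.85 in WT and 0.80 in HFD for Sstr3 and 1.52 in WT for Adra2a. It was 2.09 for Adra2a in WT with at most 10% mitochondrial UMIs, and -2.21 for Sstr3 in HFD in cells of 10000 to 30000 UMIs. Only 1 HFD δ-like cell held at least 10000 UMIs, so the last value cannot be read. Of 384 alternative shares, 285 stayed and 99 moved.

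Genes called lower and higher in HFD numbered 691 and 510. They were 429 and 326 with at least 100 UMIs per gene, where fewer genes were tested, 1366 and 200 with at most 15000 UMIs per cell and 1327 and 322 without hormone and mitochondrial genes. TMM scaling called 641 and 545, with 0 of the members. With the reported settings, single receptors in α-, δ- and γ-like cells rested on 0 to 31 UMIs, from 17 to 203 cells.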

Other observations

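Insulin-expressing clusters that stayed unnamed also held receptor UMIs. In cluster 7 (136 WT and 189 HFD cells), led by Rbp4, Sst, Pyy and Ppy beside insulin, Gpr119 was at 6.25 CPM (4.22 to 8.92) in WT and 6.22 CPM (3.48 to 10.3) in HFD, against 3.41 and 3.0 CPM in β-like cells. Gipr in the same cells was at 28.3 CPM (23.8 to 33.5) and 15.8 CPM (11.2 to 21.6), and Ffar1 at 45.0 CPM (39.2 to 51.4) and 31.9 CPM (25.2 to 39.9), with intervals that include the β-like level of each library. In cluster 12 (202 HFD cells, led by haemoglobin and mitochondrial genes, median mitochondrial share 8.58%), Gipr was at 27.2 CPM (19.8 to 36.4) and Chrm3 at 13.3 CPM (8.33 to 20.1), above the 17.1 and 7.39 CPM of HFD β-like cells. In cluster 19 (74 WT cells, led by Ghrl), Ffar1 was at 27.1 CPM (14.0 to 47.3) and Adra2a at 76.7 CPM (53.1 to 107).

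Cluster 21, chosen for this description after its values were seen, held 74 WT cells and 0 HFD cells, with a median of 1183.5 UMIs, and was led by the nuclear RNAs Gm26917 and Malat1. In these cells Gipr was counted 38 times in 30 cells (419 CPM, 296 to 575) and Chrm3 16 times in 14 cells (176 CPM, 101 to 286). WT β-like cells were at 25.8 CPM and 7.84 CPM. Sstr3, with 4 UMIs (44.1 CPM, 12 to 113), and Ffar1, with 2 UMIs (22.0 CPM, 2.67 to 79.6), were not above their β-like levels beyond the interval.

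Pairs of receptors in the same β-like cell were counted at 5000 UMIs, in a draw separate from the one used for single receptors. Ffar1 was seen in 51 of 216 WT cells with Gipr (23.6%, 18.1 to 29.8) and in 20.5% of those without it. In HFD the values were 84 of 451 cells (18.6%, 15.1 to 22.5) and 14.9%. Adra2a was seen in 24.1% (19.5 to 29.1) of WT cells with Sstr3 and in 25.6% of those without, and in 23.4% (20.9 to 26.1) and 24.9% in HFD. Gipr was seen in 4 of 22 WT and 3 of 41 HFD cells with Glp1r. Cells of a library are not replicates, and no test was made.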
